A study of Rattus norvegicus with 30 samples.

Results

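The 10 genes described here, Per1, Per2, Per3, Dbp, Nr1d1, Nr1d2, Arntl, Clock, Nfil3 and Ciart, belong to the circadian clock and its first outputs. They were taken by symbol from the deposited count table of rat dorsal hippocampus. All 10 had a row among the 17455 rows of the table, and all 10 were among the 12547 genes with enough counts to be tested.

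The clock of mammalian cells is a feedback loop of transcription. The proteins of Arntl (BMAL1) and Clock bind E-boxes together and switch on the Per genes, Nr1d1, Nr1d2, Dbp and Ciart, whose products then feed back: PER proteins and CIART hold back the pair, and the REV-ERB receptors made from Nr1d1 and Nr1d2 repress Arntl and Nfil3. Dbp activates and Nfil3 represses through the same D-box element. Dbp, switched on through E-boxes, and Arntl, held back by the REV-ERB receptors, peak at opposite times of day in most tissues, and Per1 is in addition a classical target of glucocorticoid hormone and of cAMP signalling.

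Promoter windows from RefSeq on the rat build GRCr8, running from 250 bases before to 50 bases after the annotated start, were matched for all 10 genes. The windows below are among those that held letter matches to known elements. The first Nr1d1 window (1 E-box variant) and the second Clock window (1 glucocorticoid core) also held a match and are not printed. Capitals mark matches, on either strand, to the E-box CACGTG, the E-box variant CACGTT, the D-box TTATGTAA or TTACGTAA, the ROR element core TAGGTCA, the cAMP response element TGACGTCA and the glucocorticoid element core ACANNNTGT. No 2 of the printed matches overlap. The Ciart window lies at chr2:186112197-186112496 on the minus strand, the second Nr1d1 window at chr10:84229405-84229704 on the minus strand, the Per2 window at chr9:99496944-99497243 on the minus strand, the Arntl window (Bmal1 in RefSeq) at chr1:176766078-176766377 on the plus strand, and the Nfil3 window at chr17:12432126-12432425 on the plus strand.
Ciart: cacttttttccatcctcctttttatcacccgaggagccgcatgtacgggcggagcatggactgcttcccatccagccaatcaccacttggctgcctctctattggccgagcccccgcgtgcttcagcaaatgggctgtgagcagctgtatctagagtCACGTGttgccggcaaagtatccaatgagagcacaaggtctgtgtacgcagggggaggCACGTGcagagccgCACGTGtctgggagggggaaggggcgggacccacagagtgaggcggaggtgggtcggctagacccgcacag
Nr1d1: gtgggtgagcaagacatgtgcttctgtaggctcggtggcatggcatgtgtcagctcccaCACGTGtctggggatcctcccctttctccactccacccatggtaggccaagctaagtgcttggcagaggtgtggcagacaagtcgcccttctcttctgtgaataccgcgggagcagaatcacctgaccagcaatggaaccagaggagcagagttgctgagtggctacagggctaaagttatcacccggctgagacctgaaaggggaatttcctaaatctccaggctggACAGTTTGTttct
Per2: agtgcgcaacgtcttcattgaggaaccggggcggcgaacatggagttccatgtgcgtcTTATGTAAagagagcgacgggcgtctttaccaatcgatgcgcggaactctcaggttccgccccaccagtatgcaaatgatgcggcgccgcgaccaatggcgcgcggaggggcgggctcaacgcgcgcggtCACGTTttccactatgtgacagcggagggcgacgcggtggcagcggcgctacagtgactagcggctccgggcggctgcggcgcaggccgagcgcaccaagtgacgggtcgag
Arntl: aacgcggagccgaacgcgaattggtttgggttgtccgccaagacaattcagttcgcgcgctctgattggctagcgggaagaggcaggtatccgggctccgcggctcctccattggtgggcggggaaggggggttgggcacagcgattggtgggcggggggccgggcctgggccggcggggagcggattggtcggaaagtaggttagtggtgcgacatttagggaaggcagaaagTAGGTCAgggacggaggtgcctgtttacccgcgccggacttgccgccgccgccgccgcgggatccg
Nfil3: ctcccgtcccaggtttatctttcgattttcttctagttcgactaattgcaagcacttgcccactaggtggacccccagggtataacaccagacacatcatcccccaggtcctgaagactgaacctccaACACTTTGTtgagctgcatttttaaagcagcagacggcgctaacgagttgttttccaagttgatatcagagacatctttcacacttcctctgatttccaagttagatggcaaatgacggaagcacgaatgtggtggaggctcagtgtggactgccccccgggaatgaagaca

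The Ciart window held 3 E-boxes, which begin 93, 35 and 21 bases before the start. The second Nr1d1 window held 1 E-box and 1 glucocorticoid core. The Per2 window held the E-box variant and 1 D-box, the Arntl window 1 ROR core beginning 16 bases before the start, and the Nfil3 window 1 glucocorticoid core beginning 122 bases before the start. Among 33469 rat windows of this length, 6.42% held an E-box, 4.83% the variant, 1.01% a D-box, 2.63% the ROR core, 1.83% the cAMP element and 6.86% the glucocorticoid core. The windows of Per1, Per3, Dbp and Nr1d2 held none of these letters. However, the only Per1 window, chr10:54304126-54304425 on the plus strand, lies inside the gene, which spans 54299002 to 54313804. The Per3, Ciart, second Nr1d1 and second Clock windows also lie inside their genes. For Per1, Per3 and Ciart, the sequence before the outermost start of the gene was therefore not searched. A match is a description of the sequence and was not tested as a binding site.

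Both sexes of a transgenic line, TgF344-AD (alzheimer in the labels), and of wildtype rats were kept on chow or on a western diet. The transgenes of TgF344-AD rats are driven by the mouse prion promoter. The 8 groups held 4 libraries each of male wildtype chow, male wildtype western, male alzheimer chow, male alzheimer western, female wildtype chow and female alzheimer chow, and 3 each of female wildtype western and female alzheimer western. The labels name 2 cohorts, of 14 and 16 libraries. They give neither age nor time of collection, and do not say whether libraries are separate animals, so p-values measure the spread between these libraries.

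Library totals ran from 13.9 to 31.4 M counts, with a median of 17.8 M. As a check of the genotype labels, App stood at 3137 CPM (a library's counts scaled to a common total) or more in alzheimer libraries and at 1782 CPM or less in wildtype ones. The hippocampal markers Wfs1 (median 798.5 CPM), Neurod6 (302.3 CPM) and Prox1 (61.4 CPM) were present, whereas Fibcd1 (0.495 CPM) and Spink8 (0.0559 CPM) were near 0. The summed level of 10 choroid plexus markers ran from 3.37 to 64.8 CPM, and the median of Otx2 was 0 CPM. In bulk tissue, fewer cells of a type and less RNA per cell cannot be told apart.

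The diet difference went opposite ways in the sexes in 2 clock genes. It was seen in Per1, which encodes a clock repressor, and in Nfil3, which encodes the D-box repressor. In males, Per1 fell on the western diet, and in females Nfil3 rose. Genes were called at an adjusted p under 0.05 in the quasi-likelihood test of edgeR, and log2 differences are given with their standard error.

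In male wildtype rats, Per1 stood at 84.7, 74.6, 79.1 and 83.9 CPM on chow and at 52.7, 54.0, 60.5 and 67.3 CPM on the western diet. In male alzheimer rats it stood at 63.8, 76.7, 74.9 and 95.3 CPM on chow and at 48.5, 67.9, 58.1 and 77.1 CPM on the western diet. The western libraries lay below the chow libraries in wildtype males, and the ranges overlapped in alzheimer males.

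In female wildtype rats, Per1 stood at 60.5, 63.2, 49.8 and 59.5 CPM on chow and at 82.0, 70.8 and 86.6 CPM on the western diet. In female alzheimer rats it stood at 64.6, 75.3, 60.6 and 60.7 CPM on chow and at 79.7, 72.0 and 77.6 CPM on the western diet. Here the order was the opposite: the western libraries lay above the chow libraries in wildtype females, and the ranges overlapped in alzheimer females. Whether the genotypes differ in this diet by sex pattern was not tested.

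Nfil3 gave the same picture at a lower count. In male wildtype rats it stood at 18.7, 12.8, 10.9 and 13.1 CPM on chow and at 11.6, 9.31, 10.7 and 9.64 CPM on the western diet. In male alzheimer rats it stood at 14.9, 12.99, 11.3 and 14.4 CPM on chow and at 9.24, 12.3, 7.93 and 11.5 CPM on the western diet. The ranges overlapped in males of both genotypes.

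In female wildtype rats, Nfil3 stood at 9.30, 9.86, 8.03 and 9.02 CPM on chow and at 14.1, 14.7 and 13.6 CPM on the western diet, with no overlap. In female alzheimer rats it stood at 10.9, 11.4, 9.29 and 7.47 CPM on chow and at 11.6, 14.8 and 10.5 CPM on the western diet, with overlap.

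**Figure D1:**
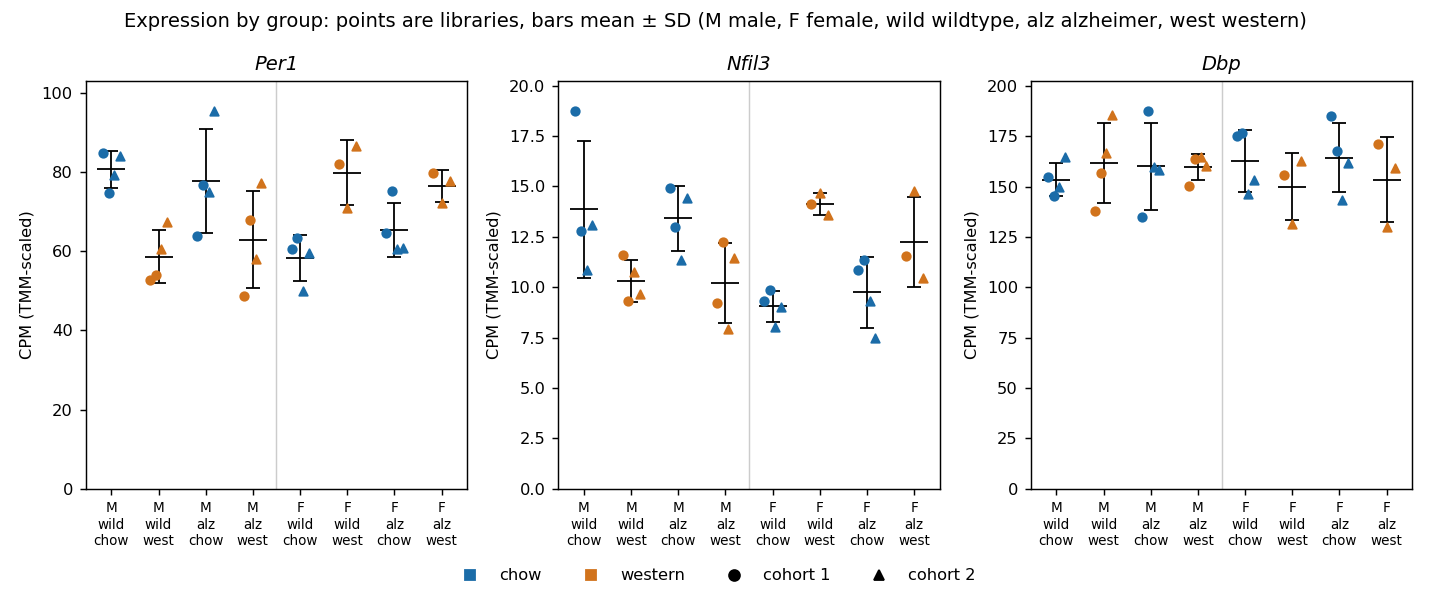
Per1, Nfil3 and Dbp in CPM (vertical axes, from 0) in the 8 groups; points are libraries, circles cohort 1 and triangles cohort 2, blue chow and orange western, bars the mean ± SD. Per1 averages 79.1 CPM in males on chow and 60.8 CPM in males on the western diet, against 61.8 and 78.1 CPM in females. Over both genotypes the chow and western ranges overlap within each sex for all 3 genes.

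Over both genotypes, Per1 averaged 79.1 ± 9.22 CPM (SD, n = 8) in males on chow and 60.8 ± 9.47 CPM (SD, n = 8) in males on the western diet. In females it averaged 61.8 ± 7.02 CPM (SD, n = 8) on chow and 78.1 ± 6.02 CPM (SD, n = 6) on the western diet. The difference between the diet differences, female minus male, was 0.71 ± 0.11 on the log2 scale (edgeR adjusted p = 0.000376). Of 8 male western libraries, 5 lay below every male chow library, and of 6 female western libraries, 4 lay above every female chow library.

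Nfil3 averaged 13.6 ± 2.47 CPM (SD, n = 8) on chow and 10.3 ± 1.47 CPM (SD, n = 8) on the western diet in males, and 9.40 ± 1.31 CPM (SD, n = 8) and 13.2 ± 1.77 CPM (SD, n = 6) in females. Its diet by sex difference was 0.93 ± 0.14 on the log2 scale (edgeR adjusted p = 0.000376). These were 2 of the 10 clock genes, where 1.23% of all tested genes were called in this comparison. Both calls held when any 1 library was left out, with log2 values of 0.67 to 0.77 for Per1 and 0.83 to 0.99 for Nfil3.

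With 2 surrogate variables in the fit, the diet by sex value of Per1 was 0.37 ± 0.074 (edgeR adjusted p = 0.0229) and that of Nfil3 was 0.74 ± 0.17 (edgeR adjusted p = 0.0726). In cohort 1 alone, where each female western group has 1 library, Per1 gave 0.72 (edgeR adjusted p = 0.0245) and Nfil3 0.79 (edgeR adjusted p = 0.135). Cohort 2 alone gave 0.76 (edgeR adjusted p = 0.0131) and 0.99 (edgeR adjusted p = 0.0373).

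Per2, the closest relative of Per1 among the repressors, had a diet by sex value of 0.34 ± 0.12, which missed the threshold (edgeR adjusted p = 0.153). It averaged 41.0 ± 7.32 and 35.1 ± 4.88 CPM (SD, n = 8 each) in males on chow and on the western diet. In females it averaged 35.5 ± 3.25 CPM (SD, n = 8) and 39.2 ± 4.01 CPM (SD, n = 6). With 2 surrogate variables the Per2 value was 0.0070 ± 0.092 on the log2 scale.

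The other 7 clock genes had diet by sex values between -0.15 (Nr1d1) and 0.16 (Per3), with edgeR adjusted p of 0.367 or more. Dbp, the D-box activator, gave -0.14 ± 0.095 and Arntl, the E-box activator, 0.065 ± 0.10. The third Per gene, Per3, gave 0.16 ± 0.16. For these 7 genes no diet by sex difference was detected.

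**Figure D2:**
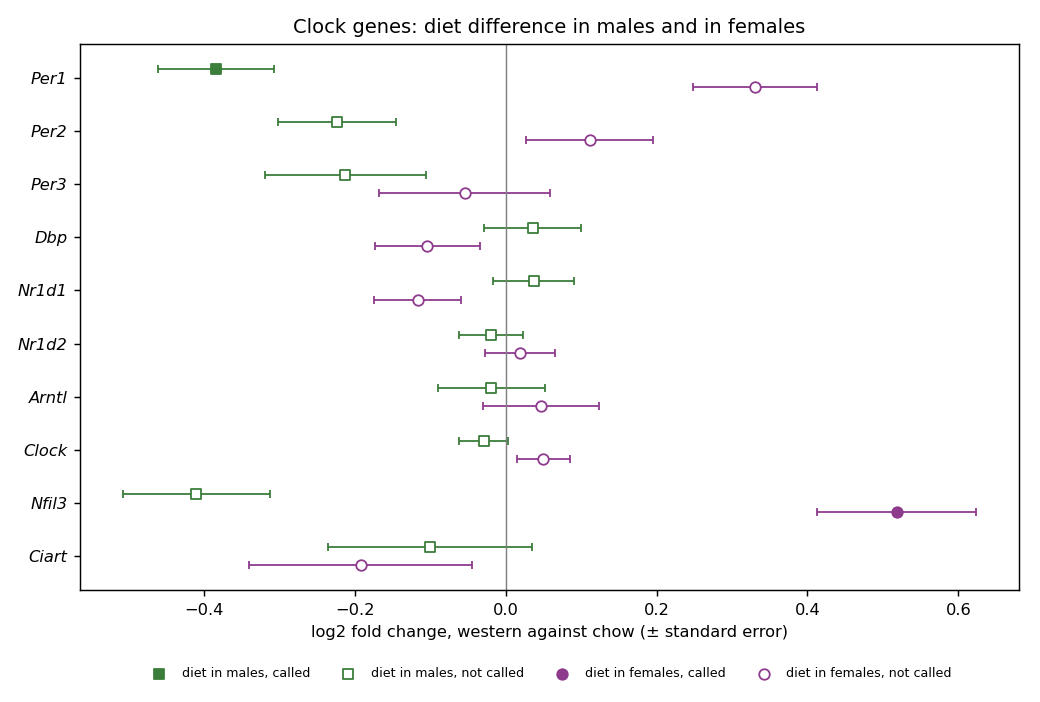
Log2 fold change of the western diet against chow (horizontal axis, ± standard error) for the 10 clock genes, in males (green squares) and in females (purple circles); filled symbols were called. Per1 and Nfil3 lie below 0 in males and above 0 in females, at -0.38 and -0.41 against 0.33 and 0.52.

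Within males, the western diet was accompanied by a Per1 change of -0.38 ± 0.076 (edgeR adjusted p = 0.0179), which was 1 of 10 clock genes beside 0.128% of all tested genes. The Nfil3 value in males was -0.41 ± 0.097 and missed the threshold (edgeR adjusted p = 0.0673). The Per1 call in males was lost when any of replicates 1, 2, 4, 5, 23 or 30 was left out, with edgeR adjusted p of up to 0.0710. It was also lost without the 3 libraries highest in choroid plexus markers, replicates 30, 20 and 11 (-0.33, edgeR adjusted p = 0.0919).

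Within females, Nfil3 gave 0.52 ± 0.10 (edgeR adjusted p = 0.0346), again 1 of 10, beside 0.183% of all tested genes. Per1 in females gave 0.33 ± 0.082 and missed the threshold (edgeR adjusted p = 0.0791). The Nfil3 call was lost without replicate 9, 12, 15, 17, 18, 19 or 22, with edgeR adjusted p of up to 0.146.

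Read the other way, mean Per1 and Nfil3 levels in females lay below those of males on chow and above them on the western diet. On chow, Per1 was lower in females by a log2 value of -0.35 ± 0.076 (edgeR adjusted p = 0.0110) and Nfil3 by -0.54 ± 0.097 (edgeR adjusted p = 0.00242), 2 of 10 clock genes beside 2.3% of all tested genes. On the western diet, Per1 was higher in females by 0.36 ± 0.082 (edgeR adjusted p = 0.0333), 1 of 10 beside 0.438%. The Nfil3 value there was 0.39 ± 0.10 (edgeR adjusted p = 0.0892).

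The sex call of Per1 on the western diet was lost without replicate 1, 2, 5, 11, 12, 21, 22, 23 or 24, with edgeR adjusted p of up to 0.145. Both sex calls on chow held when any 1 library was left out. With 2 surrogate variables the values on chow were -0.11 for Per1 (edgeR adjusted p = 0.764) and -0.38 for Nfil3 (edgeR adjusted p = 0.514).

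Genotype was accompanied by no called clock gene, where 8.03% of all tested genes were called, and no clock gene had an unadjusted p under 0.05 in edgeR or passed in DESeq2. The largest value was that of Ciart, the repressor also known as CHRONO, at 0.20 ± 0.10 (edgeR adjusted p = 0.242). Ciart averaged 11.01 ± 2.16 CPM (SD, n = 15) in alzheimer and 9.62 ± 2.09 CPM (SD, n = 15) in wildtype libraries, and the ranges overlapped. Ciart was called when replicate 12, a female wildtype western library, was left out.

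The remaining genotype values lay between -0.049 for Per2 and 0.091 for Per3. With 2 surrogate variables Per2 was called at -0.16 ± 0.041 (edgeR adjusted p = 0.0179).

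Averaged over the sexes, the western diet called none of the 10 genes, where 0.00797% of all tested genes were called, and averaged over the diets, sex called none, where 0.837% were. No clock gene had an unadjusted p under 0.05 in edgeR in either comparison, and DESeq2 also called none. The diet value of Per1 was -0.026 ± 0.056 and that of Nfil3 0.054 ± 0.072, averages of values with opposite signs in the sexes. The interactions of genotype with diet and of genotype with sex called no clock gene and 0% of all tested genes, with no unadjusted p under 0.05 for a clock gene in either.

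The Per3 sex value, female minus male, was 0.056 ± 0.077 over both cohorts. It was 0.40 ± 0.077 (edgeR adjusted p = 0.0170) in cohort 1 alone and -0.22 ± 0.082 (edgeR adjusted p = 0.303) in cohort 2 alone. These values have opposite signs, and the difference between the cohorts was not tested.

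Between the cohorts themselves no clock gene was called, where 0.0877% of all tested genes were. Per2 (0.14 ± 0.058, cohort 2 minus cohort 1) and Nfil3 (-0.16 ± 0.072) had an unadjusted p under 0.05 in edgeR, with adjusted p of 0.287 and 0.351.

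The phase-opposed genes Dbp and Arntl were called in none of the comparisons above. Dbp averaged 157 ± 15.5, 161 ± 13.8 and 164 ± 15.2 CPM (SD, n = 8 each) in males on chow, males on the western diet and females on chow, and 152 ± 17.03 CPM (SD, n = 6) in females on the western diet. Arntl averaged 32.3 ± 3.43, 31.8 ± 2.66 and 30.998 ± 2.28 CPM (SD, n = 8 each) and 31.9 ± 4.71 CPM (SD, n = 6) in the same order. The ranges of the 4 sets overlapped for both genes.

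The difference of log2 CPM, Dbp minus Arntl, is a simple measure of the balance of these opposed genes. It averaged 2.32 ± 0.261 (SD, n = 30), from 1.78 to 2.74. With no time of collection given, its values cannot be placed at a clock phase, and like values need not mean a like phase. Its mean was 2.28 in males on chow, 2.33 in males on the western diet, 2.39 in females on chow and 2.25 in females on the western diet, with SDs of 0.282, 0.234, 0.192 and 0.373. Alzheimer and wildtype libraries averaged 2.34 and 2.29, and cohorts 1 and 2 averaged 2.34 and 2.30. The ranges of the groups overlapped in each of these contrasts, and the measure itself was not tested between groups.

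The lowest values, 1.78 and 1.81, belonged to female alzheimer western replicate 18 and female wildtype western replicate 17, both of cohort 2. The highest, 2.74, belonged to male alzheimer chow replicate 8 and male wildtype western replicate 27. Whether libraries were collected at different times of day was not tested, since the labels give no time.

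**Figure D3:**
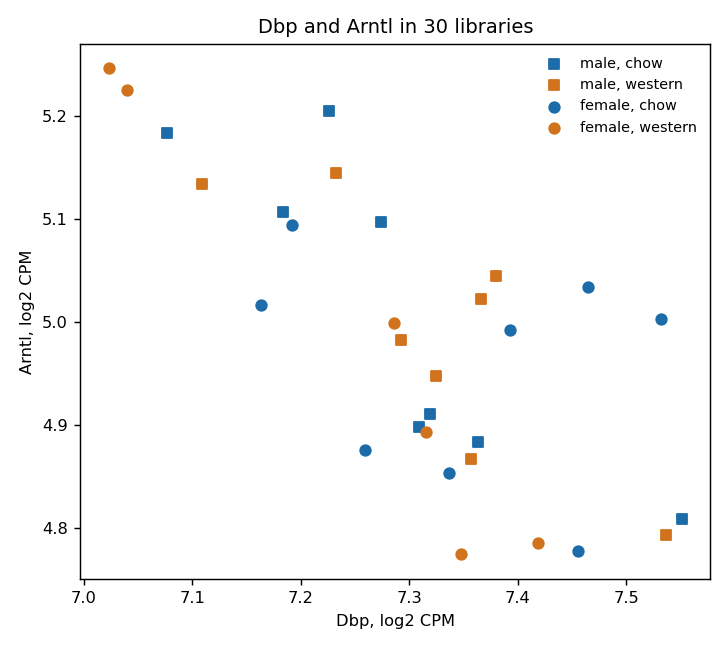
Dbp (horizontal axis) against Arntl (vertical axis), both in log2 CPM, for 30 libraries, with squares for males, circles for females, blue for chow and orange for western. Arntl is lower where Dbp is higher (Pearson r = -0.742), and the 4 sex and diet sets are intermixed.

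Over the 30 libraries, Dbp and Arntl were opposed, with Pearson r = -0.742 (permutation p = 1e-05, the smallest that 100000 resamples can give, adjusted p = 9e-05 over the 9 pairs tested). Spearman's rho was -0.686 (permutation p = 0.00011, adjusted p = 0.000495). Without the 2 libraries farthest from the Dbp median r was -0.655, and it was -0.751 in cohort 1 (n = 14) and -0.785 in cohort 2 (n = 16). On residuals from group and cohort r was -0.780. After removal of the first 2 principal components of all other genes, which held 10.6% and 6.88% of the residual variance, it was -0.741.

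Of the other genes of the E-box arm, 3 were tested against Arntl. Nr1d2, Per1 and Per2 were not among the tested pairs, and their r with Arntl, as a description, was -0.517, -0.260 and -0.255. Nr1d1, the REV-ERBα gene, gave r = -0.430 (permutation p = 0.0179, adjusted p = 0.034) and rho = -0.371 (permutation p = 0.0438, adjusted p = 0.0563). Per3 gave r = -0.425 (permutation p = 0.0189, adjusted p = 0.034) and rho = -0.438 (permutation p = 0.0164, adjusted p = 0.0308). Ciart gave r = -0.409 (permutation p = 0.0243, adjusted p = 0.0364) and rho = -0.396 (permutation p = 0.0317, adjusted p = 0.0475).

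In cohort 1 and cohort 2 alone, r was -0.328 and -0.496 for Nr1d1, -0.377 and -0.485 for Per3, and -0.545 and -0.322 for Ciart, and none of these passed after adjustment. Without the 2 libraries farthest from the median they were -0.447, -0.419 and -0.551.

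Per1 and Per2 varied together from library to library, with r = 0.780 (permutation p = 2e-05, adjusted p = 9e-05) and rho = 0.696 (permutation p = 6e-05, adjusted p = 0.000495). The r was 0.782 in cohort 1, 0.805 in cohort 2, 0.717 without the 2 farthest libraries and 0.835 on residuals. With the first 2 residual components removed the r was 0.454 (permutation p = 0.012, adjusted p = 0.0304). That permutation ignores the terms fitted first, so these p-values are too small and the value is a description only.

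Arntl and Clock, the partners of the activator, gave r = 0.553 (permutation p = 0.00177, adjusted p = 0.00531) and rho = 0.535 (permutation p = 0.00289, adjusted p = 0.00867). The r was 0.552 and 0.558 in the cohorts, neither past the threshold after adjustment, and 0.485 without the 2 farthest libraries.

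The remaining 3 pairs did not pass on Pearson's r. Dbp and Per3 gave r = 0.360 (permutation p = 0.0509, adjusted p = 0.0655) and rho = 0.432 (permutation p = 0.0171, adjusted p = 0.0308), Dbp and Nfil3 gave r = -0.263 (permutation p = 0.159, adjusted p = 0.179) and rho = -0.235 (permutation p = 0.212, adjusted p = 0.239), and Nr1d1 and Nr1d2 gave r = 0.119 (permutation p = 0.534, adjusted p = 0.534) and rho = 0.135 (permutation p = 0.48, adjusted p = 0.48). In cohorts 1 and 2 these were 0.444 and 0.453, -0.308 and -0.322, and 0.566 and -0.163. Without the 2 farthest libraries they were 0.340, -0.103 and 0.121.

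**Figure D4:**
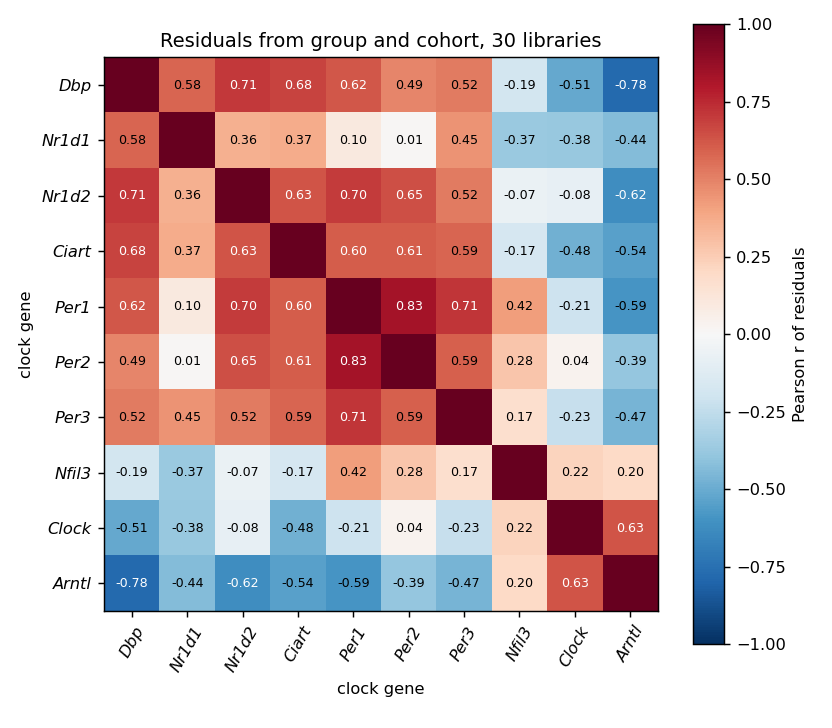
Pearson r between residuals from group and cohort for each pair of the 10 clock genes over 30 libraries; red is above 0 and blue below 0. Arntl and Clock (0.63) both lie below 0 with Dbp, Nr1d1 and Ciart, with Dbp and Arntl at -0.78, and Per1 and Per2 share the highest value, 0.83.

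As a description over all 45 pairs, residual r was above 0 in 28. Dbp ran with Nr1d2 (0.709), Ciart (0.676), Per1 (0.624) and Nr1d1 (0.584) and against Clock (-0.508). Nfil3 stood apart, with its highest residual r at 0.419 (Per1) and its lowest at -0.368 (Nr1d1). The points share libraries and depth. The correlation of log2 total count with log2 CPM ran from -0.351 (Per2) to 0.214 (Nr1d1) over the 10 genes.

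The second residual component, computed without the clock genes, had r of 0.832 with Per1, 0.781 with Per2, 0.650 with Ciart, 0.646 with Per3 and 0.572 with Nr1d2. With Nr1d1 it had r of -0.0287 and with Nfil3 0.349. Over all tested genes outside the clock genes, its highest r were with RGD1566401 (0.888), Klf15 (0.860), Rreb1 (0.860), Clk4 (0.847) and Ssh3 (0.842). Its lowest were with Fabp7 (-0.851), Rac1 (-0.805), Slco5a1 (-0.795), Hsp90b1 (-0.782) and Eef1a1 (-0.780). What the component reflects was not tested. Of 20 tested genes of the glucocorticoid list, 17 had r above 0 with this component and 3 below 0, with a median of 0.585 beside -0.0127 for all tested genes. The highest of the list was Klf15 (0.860). The 3 below 0 were Nr3c1 (-0.728) and Nr3c2 (-0.665), which encode the hormone's receptors, and Fam107a (-0.175). Within groups, Per1 had residual r above 0 with 17 of the 20 genes of this list (median 0.651) and Nfil3 with 19 of 20 (median 0.422). Most of the other clock genes did too: Per2 and Ciart with 17 (medians 0.519 and 0.408), and Per3, Nr1d2 and Dbp with 16 (medians 0.387, 0.382 and 0.373). Nr1d1, Clock and Arntl had r above 0 with 8, 6 and 4 of the 20. The share of all tested genes with r above 0 was not computed for any clock gene, so these counts have no background beside them.

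In diet by sex, 9 of the 20 tested genes of the glucocorticoid list were called higher and none lower, with a median of 0.43, where 1.23% of all tested genes were called in either direction. The other 11 did not pass. This list, like the other gene lists, was chosen with earlier results of these data known, so its share of calls is a description and not a test. Pdk4, which encodes a brake on pyruvate dehydrogenase, gave 2.66 ± 0.33 (edgeR adjusted p = 1.37e-05). Ddit4, which encodes an mTOR inhibitor, gave 1.14 ± 0.14 (edgeR adjusted p = 1.37e-05), and Sgk1, a glucocorticoid-induced kinase gene, 1.61 ± 0.23 (edgeR adjusted p = 0.000100). Errfi1, a receptor feedback inhibitor gene, gave 0.72 ± 0.097 (edgeR adjusted p = 4.4e-05).

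In males Pdk4 averaged 7.24 ± 2.95 CPM (SD, n = 8) on chow and 2.58 ± 0.864 CPM (SD, n = 8) on the western diet, and in females 3.09 ± 0.950 CPM (SD, n = 8) and 6.94 ± 2.10 CPM (SD, n = 6). Ddit4 averaged 144.7 ± 17.996 and 95.9 ± 20.04 CPM (SD, n = 8 each) in males and 93.0 ± 16.4 CPM (SD, n = 8) and 136 ± 11.6 CPM (SD, n = 6) in females. The order of the 4 means of Pdk4 was that of Per1, and the order for Ddit4 was that of Nfil3. Pdk4 and Ddit4 were named after their values were seen. Parts of these orders rest on small differences, such as 7.24 against 6.94 CPM for Pdk4 and 95.9 against 93.0 CPM for Ddit4. The orders of Per1 and Nfil3 also rest in part on small differences between the means given above. The likeness of order was not tested. The summed level of the list was 2149 CPM in males on chow (1958 to 2310), 1906 in males on the western diet (1806 to 2049), 1901 in females on chow (1746 to 2072) and 2165 in females on the western diet (2008 to 2301). Fkbp5, a widely used reporter of this hormone, gave 0.091 ± 0.073 (edgeR adjusted p = 0.606). The part of glucocorticoid signalling in the Per1 and Nfil3 values was not tested.

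Few cell type markers passed the test in diet by sex, but several lists lay on 1 side of 0. In all, 6 of 6 microglial markers lay below 0 (median -0.21, 1 called: P2ry12 at -0.46), as did 6 of 6 oligodendrocyte markers (median -0.21, none called) and 4 of 4 tested endothelial markers (median -0.21, 1 called: Cldn5 at -0.26). The median of all tested genes was -0.0044. Astrocyte markers lay on both sides of 0, from -0.18 to 0.15, as did neuron markers, from -0.062 to 0.16. Summed microglial markers ranged from 232.1 to 277.1 CPM in males on chow, 250 to 304.8 CPM in males on the western diet, 270 to 332.2 CPM in females on chow and 258.4 to 314.7 CPM in females on the western diet. Summed oligodendrocyte markers ranged from 7861 to 12870, 9093 to 14050, 10130 to 13550 and 7816 to 12710 CPM, and summed endothelial markers from 191.8 to 241.6, 209.5 to 274.9, 224.7 to 270.2 and 189.7 to 259.9 CPM, in the same order. The ranges overlapped, all markers of these lists had counts in each set, and their part in the result was not tested. No choroid plexus or thalamus marker was called, and without the 3 libraries highest in choroid plexus markers the diet by sex values were 0.65 for Per1 and 0.98 for Nfil3, both still called.

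Of the immediate early genes, a response list of 24, 3 were called higher (Nr4a2, Nr4a3 and Gadd45b) and 1 lower (Ier2) in diet by sex, with a median of 0.0086, beside 1.23% of all tested genes. Of 13 temperature and heat shock genes none was called in diet by sex. Rbm3, a cold-inducible RNA-binding protein gene of that list, was called lower on the western diet (-0.24 ± 0.040, edgeR adjusted p = 0.00974), in females on that diet (-0.38 ± 0.059, edgeR adjusted p = 0.00299) and in females against males on it (-0.27 ± 0.059, edgeR adjusted p = 0.0222). Dnajb1, a heat shock cochaperone gene, was called lower in females on chow (-0.16 ± 0.034, edgeR adjusted p = 0.00963).

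Among 8 other core clock genes with a row, of 11 listed, genotype called 1, beside 8.03% of all tested genes. This was Npas2, a stand-in for Clock in the forebrain, at -0.15 ± 0.043 (edgeR adjusted p = 0.0278). Npas2 averaged 45.5 ± 4.06 CPM (SD, n = 15) in alzheimer and 50.1 ± 4.82 CPM (SD, n = 15) in wildtype libraries, with overlap. The call was lost in 4 of the fits that left out 1 library (edgeR adjusted p of up to 0.0571) and without the choroid-high libraries (edgeR adjusted p = 0.0705). Cry1 and Cry2, partners of the PER proteins, gave 0.029 ± 0.10 and 0.089 ± 0.044 in diet by sex, and none of the 8 genes was called there or in the diet or sex comparisons.

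Of 17 tested clock modifiers, which are the kinases, ubiquitin ligases and cofactors that act on clock proteins, genotype called 4 higher and none lower, with a median of 0.036, beside 8.03% of all tested genes. The AMPK catalytic subunit genes Prkaa2 and Prkaa1 gave 0.22 ± 0.055 (edgeR adjusted p = 0.00949) and 0.13 ± 0.029 (edgeR adjusted p = 0.00335). Btrc, a ubiquitin ligase adaptor gene, and Csnk2a1, a casein kinase 2 gene, gave 0.090 ± 0.025 and 0.080 ± 0.025 (edgeR adjusted p of 0.0217 and 0.0395). The Csnk2a1 call was lost in 16 of the fits that left out 1 library, and the Btrc call in 1 (edgeR adjusted p = 0.0635). Sex called Crebbp, a histone acetyltransferase gene, at 0.15 ± 0.034 (edgeR adjusted p = 0.0322), and diet by sex called none of the 17. The Crebbp call was lost in 9 of the fits that left out 1 library (edgeR adjusted p of up to 0.0903).

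Of 13 tested clock output genes, diet by sex called 2 higher and 1 lower, with a median of 0.10, beside 1.23% of all tested genes. Genotype, diet and sex called none. The higher ones were Pdk4, given above, and Klf9, a transcription factor gene that is also in the glucocorticoid list, at 0.25 ± 0.064 (edgeR adjusted p = 0.0428). The Klf9 call was lost in 17 of the fits that left out 1 library. The lower one, Usp2, encodes a deubiquitinase and gave -0.32 ± 0.066 (edgeR adjusted p = 0.00830). It averaged 55.1 ± 3.56 and 59.9 ± 3.83 CPM (SD, n = 8 each) in males, chow first, and 62.0 ± 3.77 CPM (SD, n = 8) and 54.3 ± 3.24 CPM (SD, n = 6) in females. Tef, the closest relative of Dbp in the list, gave 0.090 ± 0.047 (edgeR adjusted p = 0.370).

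Within groups, the clock genes differed in how widely libraries spread. The residual SD of log2 CPM was 0.316 for Ciart, 0.252 for Per3, 0.210 for Nfil3, 0.182 for Per1, 0.181 for Per2, 0.159 for Arntl, 0.153 for Dbp, 0.121 for Nr1d1, 0.0926 for Nr1d2 and 0.0598 for Clock, and the median of all tested genes was 0.117. The Ciart spread was at the 85.4th percentile of tested genes and that of Clock at the 11.2th. Ciart and Nfil3 had the lowest counts, from 106 to 393 and from 130 to 344 per library, so counting error weighs more on them than on Dbp, with 2080 to 5855.

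Outside the clock genes, those most like Dbp on residuals over 30 libraries were Alg3 (r = 0.806), Sipa1 (0.742), Ptpn23 (0.741), Tcn2 (0.733) and Ndufs7 (0.726), and those most opposed were Tmx4 (-0.827), Morf4l1 (-0.796), Rab1a (-0.779), Cxxc5 (-0.775) and Eif4a2 (-0.774). For Arntl they were Fam81a (0.768), Hmgcs1 (0.753), Ttc3 (0.747), Cxxc5 (0.737) and Zfx (0.717), and Cdk4 (-0.762), Akr1c19 (-0.749), Pias4 (-0.725), Wdr91 (-0.721) and Id1 (-0.701). Cxxc5 was in both lists, with opposite signs. These values were picked as the extremes of all tested genes and carry no test.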

How the data were processed

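RNA was measured in 30 libraries of snap-frozen dorsal hippocampus after polyA selection, per the labels. The authors deposited whole-number read counts per gene symbol, and each column was matched to 1 sample through its description. Adapters were trimmed with cutadapt and reads aligned with STAR 2.7.0a, per the submitters' processing notes. How reads were counted, with which strand setting and on which genome build, is not given in the sources used here. Antisense or overlapping genes therefore cannot be separated. The clock genes and gene lists were chosen with earlier results of these data known.

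The fit used the quasi-likelihood test of edgeR 4.0.16 (R 4.3.3) with TMM scaling, 1 coefficient per group and 1 for cohort, over genes passing a count minimum of 10 (total of 15 or more). P-values were adjusted by Benjamini-Hochberg over all 12547 genes. CPM are TMM-scaled, and log2 CPM used a prior count of 2. Correlations used 100000 permutations (numpy 2.4.6). The fit was tested on simulated counts with 200 changed genes, and the correlation step on random values with a planted correlation.

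Genes named are the clock genes, genes called from the clock and output lists (up to 4 per list and comparison), the 5 highest and 5 lowest r with Dbp and with Arntl, and defining markers. Genes of the glucocorticoid, immediate early and heat shock lists, the extremes of the second residual component, P2ry12 and Cldn5 were named after their values were seen. The alternatives were DESeq2 1.42.0 and its size factors, limma 3.58.1 with quality weights, other filters, no cohort term, each cohort alone, 2 surrogate variables (sva 3.50.0) and leaving out each library. Leaving out the 3 choroid-high libraries and removing 2 residual components were added after seeing the data.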

Additional observations from a re-analysis of the deposited data

Results flagged for a closer look

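The western diet's difference was called to differ between females and males in the following 8 genes, among others (edgeR, log2, female minus male): Per1 0.71, Nfil3 0.93, Ddit4 1.14, Errfi1 0.72, Klf9 0.25, Pdk4 2.66, Sgk1 1.61 and Usp2 -0.32. They are described above with their errors. Over all tested genes 154 were called in this comparison, so the 8 are not a full list.

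In the female alzheimer chow group, 3 values lay far from the other libraries of the group. Per2 was highest in replicate 14, at 40.7 CPM, with a gap of 0.845 of the group's range. Arntl was lowest in replicate 19, at 28.8 CPM, with a gap of 0.844 of the range. Ciart was lowest in replicate 16, at 9.40 CPM, with a gap of 0.878 of the range. These were 3 of 60 gene and group sets examined, and chance gives about 1 in 20.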

How the results depend on the processing

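No paired analysis was possible because the labels name no pairs of libraries. The replicate numbers only count through the series. Scaling by DESeq2 size factors moved the median of all genes by less than 0.001 on the log2 scale and changed no count of called clock genes. In diet by sex, 2 clock genes were called, and 1 with 2 surrogate variables and in cohort 1 alone. In diet in males, 1 was called, 2 with no filter and with DESeq2, and 0 with 2 surrogate variables, in either cohort alone and without the 3 choroid-high libraries. In diet in females, 1 was called, 2 with no filter and with limma-voom, and 0 with no cohort term, 2 surrogate variables or either cohort alone. For sex on chow, 2 were called, 1 in cohort 2 alone, and 0 with 2 surrogate variables and in cohort 1 alone. For sex on western, 1 was called, 2 with no filter and with DESeq2, and 0 in cohort 2 alone and without the choroid-high libraries. Genotype called 1 with 2 surrogate variables (Per2), and sex called 1 in cohort 1 alone (Per3). Leaving out 1 library gave 0 to 2 calls for diet in males, diet in females and sex on western, and 0 to 1 for genotype. The cohort fits rest on fewer samples. The cause of the other changes was not tested.

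Among the correlations, Dbp with Arntl and Per1 with Per2 passed under each alternative run. On residuals, with or without the 2 components, the permutation ignores the terms fitted first, so its p-values are too small. A pass in those settings is a description only. Nr1d1 with Arntl missed the threshold in cohort 1 (-0.328), cohort 2 (-0.496), males (-0.401) and females (-0.432). Per3 with Arntl missed it there too (-0.377, -0.485, -0.362 and -0.567) and with 2 components removed (-0.215), as did Ciart with Arntl in those subsets (-0.545, -0.322, -0.592 and -0.282). Arntl with Clock missed it in cohort 1 (0.552), cohort 2 (0.558) and males (0.520). Dbp with Per3 passed on residuals (0.522) and in females (0.728). With 2 components removed, Dbp with Nfil3 (-0.417) and Nr1d1 with Nr1d2 (0.421) passed only by these too small p-values. Nr1d1 with Nr1d2 had the opposite sign in cohort 2 (-0.163). Leaving out 1 library gave r of -0.488 to -0.371 for Nr1d1, -0.503 to -0.380 for Per3 and -0.593 to -0.341 for Ciart, each with Arntl, and 0.313 to 0.471 for Dbp with Per3. Depth limits Nfil3 and Ciart most, with as few as 130 and 106 counts in a library.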
